A study of Mus musculus with 6 samples.

Results

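The Toll-like receptor genes of the mouse were followed in fetal liver cells that were sorted as erythroid precursors and carried or lacked the -77 element. Erythroid markers were lower and monocyte markers higher in the sorted -77-/- cells, as given below, so the name describes the sort. The 10 members, taken by symbol from 19436 usable genes in the deposited table, were the surface receptors Tlr1, Tlr2, Tlr4, Tlr5 and Tlr6 and the endosomal receptors Tlr3, Tlr7, Tlr8, Tlr9 and Tlr13. All 10 symbols matched a row. The members, and the gene and marker lists used below, were chosen by name, but with earlier results of these data known. The libraries came from C57BL/6 embryos at E14.5, 3 of them wild type and 3 labelled -77-/-, and no treatment was given to either genotype. Gata2, a transcription factor gene of blood stem and progenitor cells, has the -77 element as a distant enhancer, and -77-/- embryos lack it on both alleles. Cells were sorted from liver by medium CD71 (the transferrin receptor) and absent Ter119 (an antigen of maturing red cells), and 10 ng of RNA went into each library. Whether each library stands for a separate embryo was not stated, and the p-values therefore reflect variation among these 6 samples, which may be technical.

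Toll-like receptors are membrane proteins with a leucine-rich repeat part that binds microbial or host ligands and a cytoplasmic TIR domain that recruits adaptors. Those at the cell surface recognise lipids and proteins of microbes, whereas those in endosomes recognise nucleic acids and need the chaperone Unc93b1 to get there. Signals pass through the adaptor Myd88, or Ticam1 (TRIF) for Tlr3 and for Tlr4 after its uptake, to NF-kappaB and interferon regulatory factors. Among blood cells these receptors are best known from monocytes, macrophages, dendritic cells, neutrophils and B cells, and not from red cell precursors.

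Between 16516338 and 20468899 whole reads per library were recovered from the deposited values, and a count of 3 reads corresponded to a normalized value of 2.56 to 3.42. The genotypes did not overlap in the summed level of 9 erythroid markers, all 9 of which were lower in -77-/- (42135 to 46003 in wild type against 3128 to 7474 in -77-/-), and none of which was at 0 throughout a genotype. Over all genes tested, 15.2% were called lower. In bulk libraries, fewer cells of a type and less RNA per cell cannot be told apart. Gata2 had normalized reads of 128, 87.8 and 61.5 in wild type and 74.2, 26.2 and 34.2 in -77-/- replicates 1 to 3, which overlapped (log2 fold change -1.10, SE 0.60, limma's adjusted p = 0.183). Wild type replicate 2 alone expressed Xist, the RNA of the inactive X chromosome, at 41877 against 28.5 to 63.2 in the other 5 libraries, which bears on the X-linked members Tlr7, Tlr8 and Tlr13. No pair of libraries was as close as counting error alone would allow (smallest chi-square per degree of freedom 17.2).

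The receptors were scarce in wild type and many times higher in -77-/-. Reads of all 10 members together numbered 140, 125 and 67 in the wild type libraries, replicates 1 to 3, and 1809, 2058 and 2421 in the -77-/- libraries. The summed normalized level was 111 ± 30.0 in wild type and 1969 ± 117 in -77-/- (SD, n = 3 here and throughout), a ratio of 17.8. Of the 10 members, 9 had a mean of at least 10 normalized reads in the higher genotype and entered the test, and all 9 were higher in -77-/- (limma on log2(value + 1), adjusted p under 0.05 over 15821 genes), without overlap between the genotypes. Across all genes tested, 16.9% were called higher, 15.2% lower and 32.2% in either direction, while 25% lay higher in -77-/- without overlap and 46.5% did not overlap in either direction. A gene that enters only through its level in -77-/- had to differ, and this was so for Tlr1, Tlr3, Tlr6, Tlr7 and Tlr8, 5 of the 9. Tlr2, Tlr4, Tlr9 and Tlr13 had means of at least 10 in wild type too. Of the same 9, edgeR called 7 higher (15.1% of all genes), DESeq2 8 (17.3%) and limma-voom 8 (16.6%), and 8 were higher at an adjusted p under 0.05 in the authors' deposited table (16.4%). The plot of the receptors by library shows the gap between genotypes and how close to 0 many wild type values were.

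**Figure D1:**
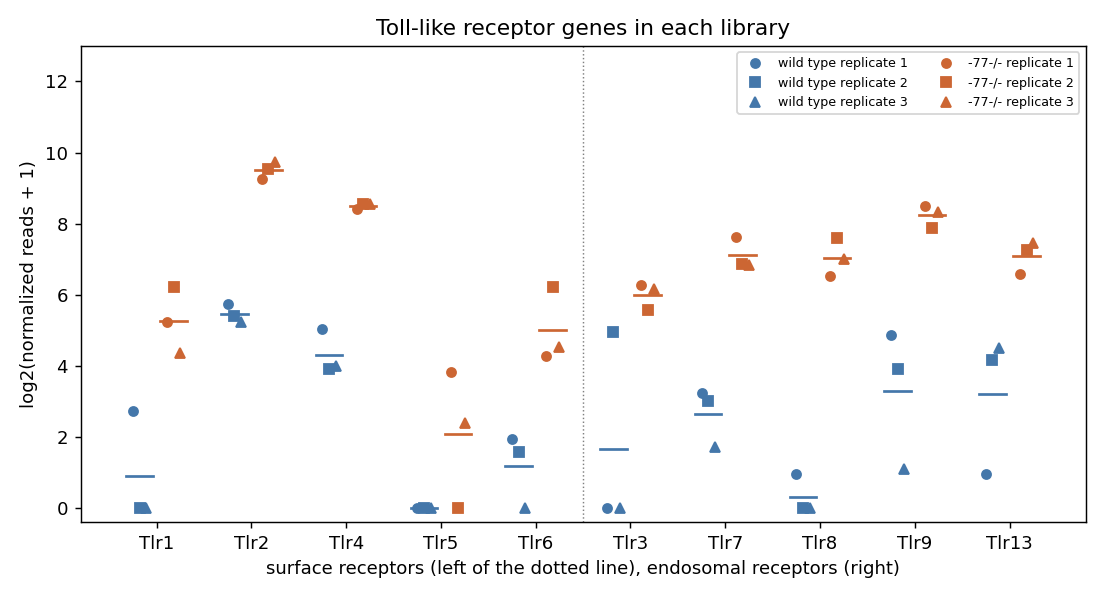
Level of each Toll-like receptor gene in each library, as log2(normalized reads + 1), with wild type in blue, -77-/- in orange, a marker shape per replicate and a bar at the mean of the log values. Surface receptors stand left of the dotted line and endosomal receptors right of it. In all members but Tlr5 every -77-/- library lies above every wild type library, and Tlr5 stays at 0 in wild type and in -77-/- replicate 2.

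Receptors of both classes were higher in -77-/-. The 4 surface receptors tested had log2 fold changes from 3.83 to 4.37 (median 4.12), and the 5 endosomal receptors from 3.89 to 6.73 (median 4.46), beside a median of 0.10 over all genes tested. The summed surface receptors went from 67.0 ± 22.6 to 1181 ± 137 normalized reads, a ratio of 17.6. The summed endosomal receptors went from 43.8 ± 21.9 to 788 ± 39.4, a ratio of 18. Endosomal receptors made up 44.4%, 37.1% and 38.9% of family reads in -77-/- replicates 1 to 3 (Wilson 95% intervals 42.1 to 46.7, 35.1 to 39.2 and 36.9 to 40.8). In wild type replicates 1 to 3 they made up 29.3%, 54.4% and 32.8% (22.4 to 37.3, 45.7 to 62.9 and 22.8 to 44.7). The wild type shares lay on either side of the -77-/- shares. These intervals cover counting error only, and no test between the receptor classes was made, since members are not replicates.

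**Figure D2:**
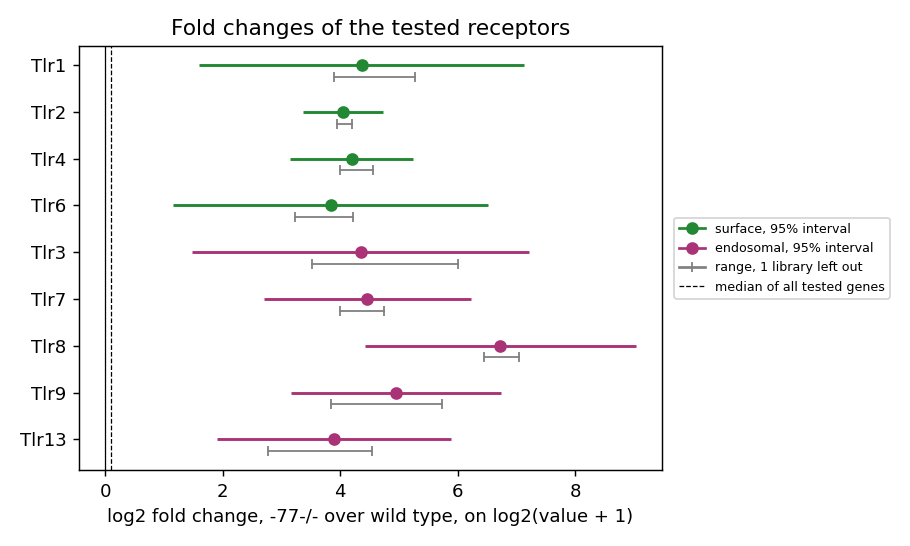
Log2 fold change of the 9 receptors tested, given as -77-/- over wild type after log2(value + 1), with its 95% interval from limma in green for surface and purple for endosomal receptors. Grey bars give the range of the estimate when each library is left out in turn, and the dashed line marks the median of all tested genes, 0.10. Every interval lies above 0, and that of Tlr2 is the narrowest of the 9.

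Tlr2, which pairs with Tlr1 or Tlr6 to bind bacterial lipopeptides, was the receptor with the most reads. It had normalized reads of 52.5, 40.9 and 36.5 in wild type and 614, 738 and 846 in -77-/- replicates 1 to 3. The genotypes lay far apart and the libraries within each close together, and the log2 fold change was 4.05 (SE 0.32, limma's adjusted p = 1.7e-07). Tlr2 alone gave 33.4% to 40.9% of the family's reads in -77-/- and 32.8% to 47.8% in wild type.

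Tlr4, the receptor for bacterial lipopolysaccharide, had 31.9, 14 and 14.8 normalized reads in wild type and 341, 373 and 371 in -77-/-. Its -77-/- libraries were the most even of any member, the highest being 1.10 times the lowest. The log2 fold change was 4.19 (SE 0.49, limma's adjusted p = 9.6e-06).

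Tlr1 and Tlr6 stood much lower and were uneven. Tlr1 had 5.63, 0 and 0 normalized reads in wild type and 36.6, 73.9 and 19.6 in -77-/-. Tlr6 had 2.81, 2.0 and 0 in wild type and 18.3, 72.9 and 22.2 in -77-/-. For both, -77-/- replicate 2 was the highest library, 3.76 times the lowest for Tlr1 and 3.98 times for Tlr6. The log2 fold changes were 4.37 (SE 1.29, limma's adjusted p = 0.017) for Tlr1 and 3.83 (SE 1.25, adjusted p = 0.029) for Tlr6. Both calls ended without -77-/- replicate 2 (Tlr1 log2 fold change 3.89, limma's adjusted p = 0.111, and Tlr6 3.23, adjusted p = 0.170). That of Tlr1 also ended without -77-/- replicate 1 (adjusted p = 0.052) and with edgeR (adjusted p = 0.055), and that of Tlr6 without -77-/- replicate 3 (adjusted p = 0.077) and with limma-voom (adjusted p = 0.072). Over all alternatives the adjusted p ran from 0.0075 to 0.111 for Tlr1 and from 0.0044 to 0.170 for Tlr6. Tlr1 reached 5.28 without wild type replicate 1, and Tlr6 stood at 3.25 without wild type replicate 3.

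The split of reads between Tlr1 and Tlr6 is uncertain, since these neighbouring genes on chromosome 5 share sequence. Of the windows of 50 bases, the read length, in the longest GENCODE M21 coding transcript, 15.3% of those of Tlr1 also occur in Tlr6, and 12.6% of those of Tlr6 occur in another gene, nearly all in Tlr1. The shared stretches of at least 50 bases number 6, hold 748 bases in all and lie within the coding sequence. The longest has 229 bases, from base 1468 of 2388 coding bases in Tlr1 and base 1507 of 2421 in Tlr6, and is shown because a read from within it fits either gene:
Tlr1 and Tlr6 shared stretch: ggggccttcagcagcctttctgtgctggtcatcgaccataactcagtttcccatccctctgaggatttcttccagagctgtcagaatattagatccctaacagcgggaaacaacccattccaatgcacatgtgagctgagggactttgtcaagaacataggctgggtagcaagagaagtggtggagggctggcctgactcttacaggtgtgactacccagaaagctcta

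Tlr5, the receptor for bacterial flagellin, was at the limit of detection. It had no read in wild type and 13, 0 and 5 reads in -77-/- replicates 1 to 3. With wild type set at a floor of 3 reads over the genotype the ratio was 5.55, a value that leaves out the spread among the -77-/- libraries. With a mean of 5.83 normalized reads in -77-/- Tlr5 did not enter the test, and -77-/- replicate 2 had none. Without the filter on low values it was tested and did not pass (log2 fold change 2.08, adjusted p from limma = 0.235).

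Among the endosomal receptors Tlr8, a sensor of RNA breakdown products encoded next to Tlr7 on the X chromosome, showed the largest log2 fold change of the 9 tested. It had 0.938, 0 and 0 normalized reads in wild type, a single read, against 91.5, 192 and 128 in -77-/-. The ratio of reads, 438 to 1 and scaled by the size factors, was 405 with an exact 95% interval of 72.4 to 16044 for counting error alone. The log2 fold change was 6.73 (SE 1.08, limma's adjusted p = 2.0e-04), a value that depends on the added 1 and ran from 4.69 to 8.55 over the alternatives, in all of which the call held.

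Tlr7, a sensor of single-stranded RNA, had 8.44, 6.98 and 2.28 normalized reads in wild type and 195, 117 and 113 in -77-/-. Replicate 1 was the highest of the -77-/- libraries for Tlr7 and the lowest for Tlr8. The log2 fold change of Tlr7 was 4.46 (SE 0.82, limma's adjusted p = 6.8e-04). Without wild type replicate 2, the library with Xist, the log2 fold changes were 4.63 for Tlr7, 6.57 for Tlr8 and 4.37 for Tlr13, and all 3 passed.

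Tlr9, the receptor for DNA with unmethylated CpG, had the highest level among the endosomal receptors. Its normalized reads were 28.1, 14 and 1.14 in wild type and 359, 234 and 319 in -77-/-. The log2 fold change was 4.94 (SE 0.83, limma's adjusted p = 3.7e-04), or 3.85 without wild type replicate 3, whose single read was the lowest value, and 5.73 without wild type replicate 1.

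Tlr13, a mouse receptor for bacterial ribosomal RNA, had 0.938, 17.0 and 21.7 normalized reads in wild type and 94.6, 153 and 173 in -77-/-, a ratio of means of 10.6. Its log2 fold change was 3.89 (SE 0.93, limma's adjusted p = 0.0047), or 2.76 without wild type replicate 1 and 4.53 without wild type replicate 3. The call ended with limma fitted without a trend and robust estimation (adjusted p = 0.051, the highest of a range from 1.5e-04 over the alternatives).

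Tlr3, the receptor for double-stranded RNA and the member that signals without Myd88, gave the least certain call. Its normalized reads were 0, 29.9 and 0 in wild type, all 30 reads being in replicate 2, and 76.3, 46.7 and 70.0 in -77-/-. The log2 fold change, a difference of mean logs, was 4.35 (SE 1.34, limma's adjusted p = 0.022), whereas the ratio of the mean levels was 6.45. It was 6.00 without wild type replicate 2, and 3.52 without wild type replicate 1 or 3. The call ended with edgeR (log2 fold change 2.67, adjusted p = 0.217), with DESeq2 (2.69, adjusted p = 0.126), with limma without a trend and robust estimation (adjusted p = 0.093), without wild type replicate 1 (adjusted p = 0.073) and without each -77-/- replicate (adjusted p from 0.063 to 0.085), so that the range over the alternatives was 0.0025 to 0.217. In the authors' deposited table Tlr3 had a log2 fold change of 2.69 and an adjusted p of 0.101, and was the 1 member with an adjusted p there that missed 0.05. An antisense gene, Gm45542, overlaps an exon of Tlr3, and the strand setting of the counting was not given in the sources used here.

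Levels of different receptors were set side by side per kilobase of the longest coding transcript. In -77-/- Tlr2 stood highest at 243 ± 38.5 normalized reads per kilobase, above Tlr4 in every library. Tlr4 (88.7 ± 4.5) and Tlr9 (87.5 ± 18.3) overlapped. Below them came Tlr8 (40.0 ± 14.9), Tlr7 (36.3 ± 11.9) and Tlr13 (34.5 ± 10.1), which overlapped in turn, all under the lowest library of Tlr9. Tlr3 (14.6 ± 3.54), Tlr1 (14.3 ± 9.17) and Tlr6 (10.3 ± 8.29) overlapped, and Tlr5 stood last at 1.53 ± 1.77. In wild type Tlr2 was again highest, at 12.1 to 17.4 per kilobase, and no other member exceeded 8.09 in any library.

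The receptors did not all follow each other from library to library within -77-/-. With only 3 libraries some members must share an order, so a shared order does not show that receptors moved together. Deviations from the mean of the 3 -77-/- libraries, on log2(value + 1), were 0.27, -0.42 and 0.15 for Tlr3 in replicates 1 to 3. Those of Tlr9 were 0.26, -0.35 and 0.09. Tlr2 (-0.24, 0.02 and 0.22) and Tlr13 (-0.52, 0.17 and 0.35) also shared an order. So did Tlr4, Tlr6 and Tlr8, and Tlr5 had the order of Tlr3 and Tlr9. Replicate 1 was the highest -77-/- library for Tlr3, Tlr5, Tlr7 and Tlr9, replicate 2 for Tlr1, Tlr4, Tlr6 and Tlr8, and replicate 3 for Tlr2 and Tlr13. The ratio of highest to lowest library ranged from 1.10 for Tlr4 to 3.98 for Tlr6 among the 9 members tested. The plot of spread among the -77-/- libraries shows that the deviations of Tlr7 and Tlr9 have the opposite sign to those of Tlr8 and Tlr13 in replicate 1. Of the 9 cell type marker lists, 5 also had their highest -77-/- sum in replicate 1. B cell markers summed to 2733, 1513 and 1638 in -77-/- replicates 1 to 3, and erythroid markers to 7474, 3128 and 4475. Plasmacytoid dendritic cell markers summed to 5268, 4786 and 5227, conventional dendritic cell markers to 2627, 2517 and 2446, and endothelial markers to 565, 475 and 515. Monocyte markers (27250, 38211 and 30404) and macrophage markers (564, 871 and 508) were instead highest in replicate 2. Neutrophil and hepatocyte markers were highest in replicate 3. The part of any of these cell types in the spread of the receptors was not tested.

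**Figure D3:**
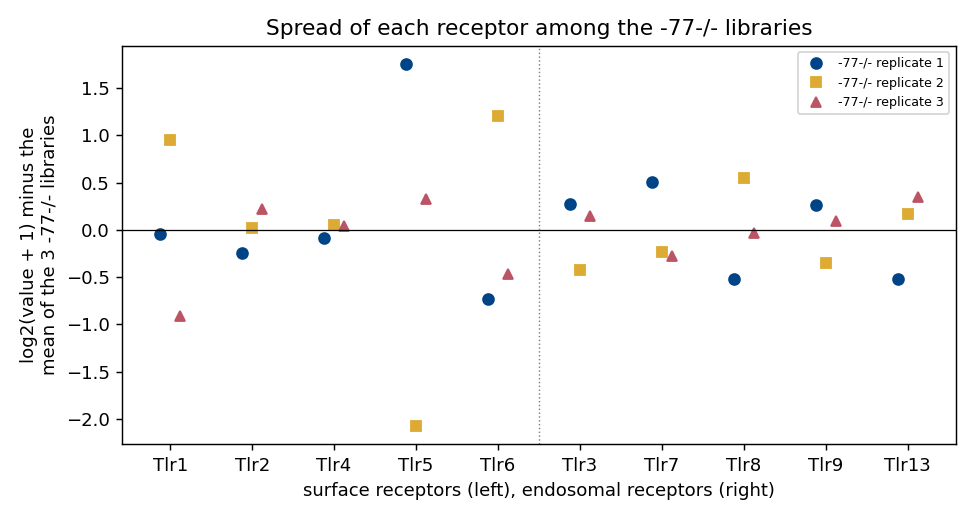
Deviation of each receptor in each -77-/- library from the mean of the 3 -77-/- libraries, on log2(value + 1), with surface receptors left and endosomal receptors right of the dotted line. Tlr1 and Tlr6 lie highest in replicate 2, at 0.95 and 1.2, Tlr7 and Tlr9 in replicate 1, at 0.51 and 0.26, and Tlr4 stays within 0.09 of its mean.

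Promoter sequence of the members was searched because they moved together. RefSeq (GRCm38.p6) gave a window for 8 of the 10 members (all but Tlr4 and Tlr7), and the 250 bases before each start site were read on both strands for GAGGAA (the core bound by PU.1, an ETS factor of myeloid cells), GAAA, any 2 bases and GAAA (a pair of interferon regulatory factor sites, here the IRF pair), GGAA, any 2 bases and GAAA (an ETS and IRF composite, which can overlap the 2 before it), GATAA (the GATA core) and GGGA, any 2 bases and TTCC (NF-kappaB). Among all 32851 promoter windows of the same length 23.3% held GAGGAA, 2.98% the IRF pair, 2.3% the composite, 22.6% GATAA and 1.21% the NF-kappaB motif. GAGGAA was found in windows of Tlr1, Tlr8, Tlr9 and Tlr13, GATAA in those of Tlr1, Tlr3 and Tlr9, the NF-kappaB motif in that of Tlr3 and the IRF pair in 1 of the 2 windows of Tlr6. The composite was in none of them, and the windows of Tlr2 and Tlr5 held no match to these exact patterns. The Tlr2 window does hold gggaattccc, which is close to the NF-kappaB pattern but was not counted. A window without a match can therefore still hold a variant of a site. No search for variants was made in any window, so their share among the members or all promoters is not known. The windows of Tlr2, the most abundant member, of Tlr8 and Tlr9, and the Tlr6 window with 2 overlapping matches are shown 5′ to 3′ on the gene's strand, with matches in capitals. They lie at chr3:83841609-83841858 (minus strand) for Tlr2, chrX:167264330-167264579 (minus) for Tlr8, chr9:106222348-106222597 (plus) for Tlr9 and chr5:64959167-64959416 (minus) for Tlr6:
Tlr2: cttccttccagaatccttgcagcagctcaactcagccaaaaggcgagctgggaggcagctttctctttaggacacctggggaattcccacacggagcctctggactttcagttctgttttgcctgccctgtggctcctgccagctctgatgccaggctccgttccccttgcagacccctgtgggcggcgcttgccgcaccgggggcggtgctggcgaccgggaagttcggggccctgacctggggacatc
Tlr8: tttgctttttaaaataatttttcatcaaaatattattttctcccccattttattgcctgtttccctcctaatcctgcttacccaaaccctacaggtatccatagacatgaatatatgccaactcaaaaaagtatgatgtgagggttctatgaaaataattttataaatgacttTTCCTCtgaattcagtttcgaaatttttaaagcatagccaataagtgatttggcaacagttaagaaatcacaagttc
Tlr9: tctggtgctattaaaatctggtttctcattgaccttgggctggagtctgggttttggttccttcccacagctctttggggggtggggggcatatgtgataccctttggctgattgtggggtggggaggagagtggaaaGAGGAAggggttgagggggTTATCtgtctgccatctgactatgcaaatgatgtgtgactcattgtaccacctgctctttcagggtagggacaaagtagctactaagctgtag
Tlr6: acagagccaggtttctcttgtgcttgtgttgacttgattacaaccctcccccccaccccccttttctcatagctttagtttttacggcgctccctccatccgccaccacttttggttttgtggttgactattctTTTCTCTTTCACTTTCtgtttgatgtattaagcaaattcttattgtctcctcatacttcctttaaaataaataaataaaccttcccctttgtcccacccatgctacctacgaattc
A match is a description of the letters in this window, and the libraries hold no measurement of binding there.

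Partners that the receptors need were higher in -77-/- in part. Of 13 genes for chaperones, co-receptors and trafficking, 10 were higher, none was lower and 3 did not pass (median log2 fold change 1.39). Over all genes tested 16.9% were called higher and 15.2% lower, and the counts in each list below are to be read beside these shares. Cd14, Socs1, Il1r1, Tlr11 and Tlr12, described below, entered the test only through their level in -77-/-, and so had to differ. Unc93b1, the chaperone that carries endosomal receptors, had 113, 39.9 and 227 normalized reads in wild type and 1431, 1258 and 1137 in -77-/- (log2 fold change 3.64, or 2.98 without wild type replicate 2). Cd180, a receptor relative that dampens or aids lipopolysaccharide responses, rose from 51.3 ± 17.3 to 1006 ± 75.4, and its partner Ly86 from 116 ± 63.4 to 1355 ± 61.3. Tasl, an adaptor of the endosomal receptors, rose with a log2 fold change of 4.40, from 25.7 ± 24.0 to 301 ± 58.2, or 2.99 without wild type replicate 2 and 5.31 without replicate 3. Its call ended with limma without a trend and robust estimation (adjusted p = 0.064, the highest over its alternatives).

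The co-receptors of Tlr4 did not pass. Cd14, which hands lipopolysaccharide to Tlr4, had 28.1, 0 and 0 normalized reads in wild type and 7.12, 37.9 and 41.8 in -77-/-, so that the genotypes overlapped (log2 fold change 2.95, SE 1.5, limma's adjusted p = 0.151). It passed without wild type replicate 1 (log2 fold change 4.57, adjusted p = 0.038), and was 2.14 without wild type replicate 2 or 3 and 3.73 without -77-/- replicate 1. Ly96 (MD-2), the subunit of the Tlr4 complex that binds the lipid, had 11.3, 19 and 9.12 in wild type and 42.7, 43.7 and 17.9 in -77-/- (log2 fold change 1.30, SE 0.93, adjusted p = 0.309).

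Of 10 endosomal proteases and nucleases that cut these receptors or their ligands, 6 were higher, none was lower and 4 did not pass (median 1.30). Ctss, cathepsin S, rose from 116 ± 82.2 to 2167 ± 162 (log2 fold change 4.51, or 3.86 without wild type replicate 2). Pld4, an exonuclease that limits ligands of Tlr9, rose from 91.3 ± 27.1 to 1831 ± 173. Lgmn, an asparagine endopeptidase, and Ctsl, cathepsin L, had log2 fold changes of 2.92 and 0.94, and the call of Ctsl ended with limma without a trend and robust estimation (adjusted p = 0.079, the highest over its alternatives). Rnaset2a and Rnaset2b, near-identical copies, each stood at 507 in wild type replicate 3, so their reads cannot be told apart.

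Signalling genes were mixed. Of 22 adaptors, kinases and ubiquitin ligases 21 were tested, and 10 were higher, 1 was lower and 10 did not pass (median 0.76). Myd88, the adaptor of all members but Tlr3, was higher in every -77-/- library, with means of 516 ± 87.1 and 914 ± 109 (log2 fold change 0.83, SE 0.19, adjusted p from limma = 0.0030). Ticam2 (TRAM), which links Tlr4 to Ticam1, rose from 26.6 ± 22.7 to 496 ± 96.2 (log2 fold change 4.47, or 5.11 without wild type replicate 1). Pik3ap1, Irak4 and Irak2 rose by 2.49, 1.37 and 1.2 on the log2 scale, and Tab3, a subunit that activates the kinase Map3k7, fell from 1324 ± 102 to 603 ± 91.9. Ticam1 itself, the adaptor of Tlr3, did not pass, with 81.5 ± 44.9 and 139 ± 44.1.

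Negative regulators were higher in 9 of 14 cases, lower in 3 and did not pass in 2 (median 1.10). The number lower was not far from the share of all genes tested, 15.2%, and 16.9% of all genes were called higher. Atf3, a repressor of inflammatory genes, rose from 241 ± 103 to 2051 ± 113. Il1rl1, the IL-33 receptor, fell from 318 ± 16.4 to 14.3 ± 12.5 (log2 fold change -5.32, or -3.83 without -77-/- replicate 1, where it had no read, and -6.13 and -6.01 without replicates 2 and 3). Nfkbia, the inhibitor of NF-kappaB, and Otud7b, a deubiquitinase, had log2 fold changes of -0.77 and -0.56. Socs1, a suppressor of cytokine signalling, and Sigirr, a TIR receptor that dampens its relatives, had log2 fold changes of 3.78 and 2.56. The calls of Otud7b, Socs1 and Sigirr were not firm: leaving out 1 library ended each of them for at least 4 of the 6 libraries, with adjusted p from limma up to 0.121, 0.151 and 0.101. When 1 library was left out the log2 fold change lay between 3.09 and 4.67 for Socs1 and between 1.65 and 3.20 for Sigirr.

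Of 11 transcription factors downstream, 7 were higher, 1 was lower and 3 did not pass (median 1.29). Irf5, which endosomal receptors activate, rose from 58.4 ± 24.5 to 1403 ± 34.6, Irf8 from 272 ± 41.7 to 3923 ± 101 and the NF-kappaB subunit Rel from 161 ± 15.1 to 1480 ± 131. Irf7 had a log2 fold change of 4.18, with 3.13 without wild type replicate 3 and 4.81 without wild type replicate 1. Rela, another NF-kappaB subunit, fell from 830 ± 7.87 to 461 ± 21.5.

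Of 21 cytokines and enzymes that Toll-like receptors induce, 13 matched a row and 12 were tested, of which 7 were higher, none was lower and 5 did not pass (median 3.19). No row was found for Il6, Il10, Il12b, Il23a, Cxcl1, Ifnb1, Nos2 and Saa3. Those that did not pass were Il12a, Cxcl2, Cxcl10, Ccl5 and Acod1. Of the called genes Il1b, Ccl2 and Ptgs2 entered the test only through their level in -77-/-, and so had to differ. Cxcl2, Ccl5 and Acod1 entered in the same way. Ccl2, a chemokine for monocytes, had no read in wild type and 87.4, 50.5 and 46.1 normalized reads in -77-/- replicates 1 to 3. With wild type set at a floor of 3 reads over the genotype the ratio was 59.2, which leaves out the spread among the -77-/- libraries. Ptgs2, the inducible cyclooxygenase, had 15, 0 and 2.28 in wild type and 326, 238 and 172 in -77-/- (log2 fold change 5.99, or 7.04 without wild type replicate 1 and 5.04 without replicate 2). Ccl3 rose from 30.2 ± 7.78 to 936 ± 195 (log2 fold change 4.92). Ccl4, with 29.1, 0 and 33.0 in wild type and 173, 265 and 341 in -77-/-, had a log2 fold change of 4.64, which was 2.97 without wild type replicate 2, 5.43 without replicate 1 and 5.52 without replicate 3. Its call ended with a pseudocount of 0.5 (adjusted p = 0.051) and with limma without a trend and robust estimation (adjusted p = 0.0832, the highest over its alternatives).

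**Figure D4:**
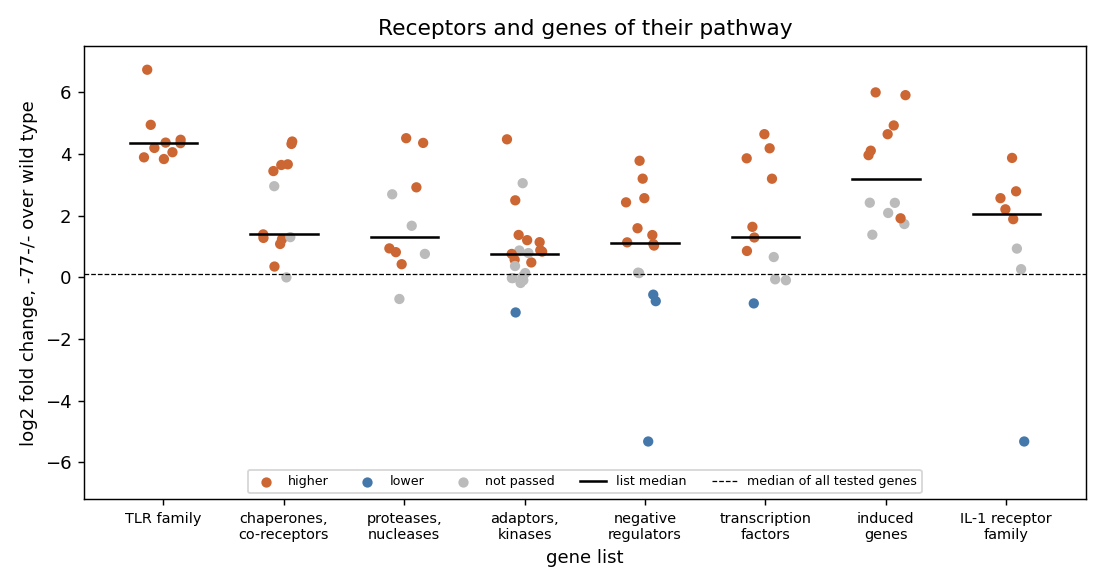
Log2 fold change of each tested gene by list, -77-/- over wild type, with genes past the threshold in orange (higher) or blue (lower), others in grey, black bars at list medians and a dashed line at the median of all tested genes. The Toll-like receptor family has a median of 4.35 and no gene below 3.83, and the adaptors and kinases have the lowest median, 0.76.

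Other receptors with a TIR domain were mixed. Of 8 members of the IL-1 receptor family 5 were higher, 1 was lower and 2 did not pass (median 2.04), the lower one being Il1rl1. Il1rl2 and Il1r1 had log2 fold changes of 3.87 and 2.79, but each lost its call when any of the 3 -77-/- libraries was left out (limma adjusted p from 0.051 to 0.135), and Il1r1 also without wild type replicates 1 and 2. The family then had 2 called members without each -77-/- library and 3 without wild type replicate 2. Il1rl2 lay between 2.48 and 4.61 on the log2 scale when 1 wild type library was dropped. Of the remaining Toll-like receptors of the mouse, Tlr12 rose from 0.625 ± 1.08 to 58.5 ± 8.79 (log2 fold change 5.38, limma's adjusted p = 0.0026), and Tlr11 did not pass, at 0, 0 and 6.84 in wild type and 30.5, 30.1 and 5.98 in -77-/-. Without wild type replicate 3 both of these passed.

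By root mean square distance between centred log2 profiles over the 6 libraries, the genes nearest to the mean of the 4 surface receptors tested were Frmd4b (0.17), P2rx7 (0.23) and Scel (0.26). Those nearest to the mean of the 5 endosomal receptors were Nrp1 (0.13), Gm10384 (0.21) and Fam135a (0.32). The call of Scel ended with edgeR (adjusted p = 0.059) and without each -77-/- replicate (adjusted p from 0.060 to 0.095). Scel, Gm10384 and Fam135a entered the test only through their level in -77-/-. The median distance of all tested genes was 2.16 and 2.52, and the members themselves lay 0.31 to 0.59 and 0.54 to 1.30 from their own means. P2rx7, a receptor for extracellular ATP, had 36.6, 15 and 10.3 normalized reads in wild type and 323, 435 and 387 in -77-/-. Nrp1, a semaphorin co-receptor, had 61.0, 118 and 42.2 in wild type and 2114, 2280 and 2124 in -77-/-. The profiles span 6 libraries of 2 genotypes, and the distances are a description.

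Markers of some of the cells known for these receptors were higher in the same libraries, while few macrophage markers passed and most neutrophil markers were lower. All 10 monocyte markers were higher in -77-/-, with a summed level of 1721 to 2824 in wild type and 27250 to 38211 in -77-/-, and none was at 0 in all libraries of a genotype. Of 12 fetal liver macrophage markers 7 matched a row, 6 were tested and 1 was higher (Adgre1, named after its values were seen), with sums of 122 to 226 and 508 to 871, and C1qc had no read in wild type and a mean of 3.04 in -77-/-. Adgre1 alone went from 33.6 ± 31.8 to 460 ± 136 and made up most of the sum in each -77-/- library. Vcam1 went from 50.7 ± 31.4 to 17.2 ± 13.5 and did not pass. Of 7 matched plasmacytoid dendritic cell markers 5 were higher (1468 to 1632 against 4786 to 5268), and of 8 conventional dendritic cell markers 5 were higher and 1 lower (617 to 905 against 2446 to 2627). The lower one was Zbtb46, with a mean of 470 in wild type and 69.5 in -77-/- (log2 fold change -2.76). Xcr1 and Clec9a did not pass. Of the 5 higher, Flt3 (mean 121 in wild type and 1283 in -77-/-) and Cd74 (68.4 and 689) had the highest means in -77-/-. Of 7 matched B cell markers 5 were higher (459 to 635 against 1513 to 2733). Over all genes tested 16.9% were called higher and 15.2% lower, and the macrophage markers called higher were near that share. Batf3, Ly6d, Mmp8, Cd163, C1qb, Ttr and Fgb in the marker lists entered the test only through their level in -77-/-. Neutrophil markers went the other way, with 4 of 7 lower and 1 higher, and sums of 4373 to 6796 in wild type and 2284 to 2602 in -77-/-. Of 5 hepatocyte and 4 endothelial markers tested, 1 in each list was higher and none was lower, again near the share of all genes. Their sums were 66.9 to 210 against 226 to 1258, and 114 to 320 against 475 to 565. The hepatocyte sum of 1258 was that of -77-/- replicate 3. In -77-/- replicates 1 to 3 Alb had 34.6, 63.2 and 435 normalized reads, and Afp had 42.7, 44.7 and 395. The hepatocyte marker Fgb had no read in wild type. The part of any of these cell types in the levels of the Toll-like receptors was not tested.

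**Figure D5:**
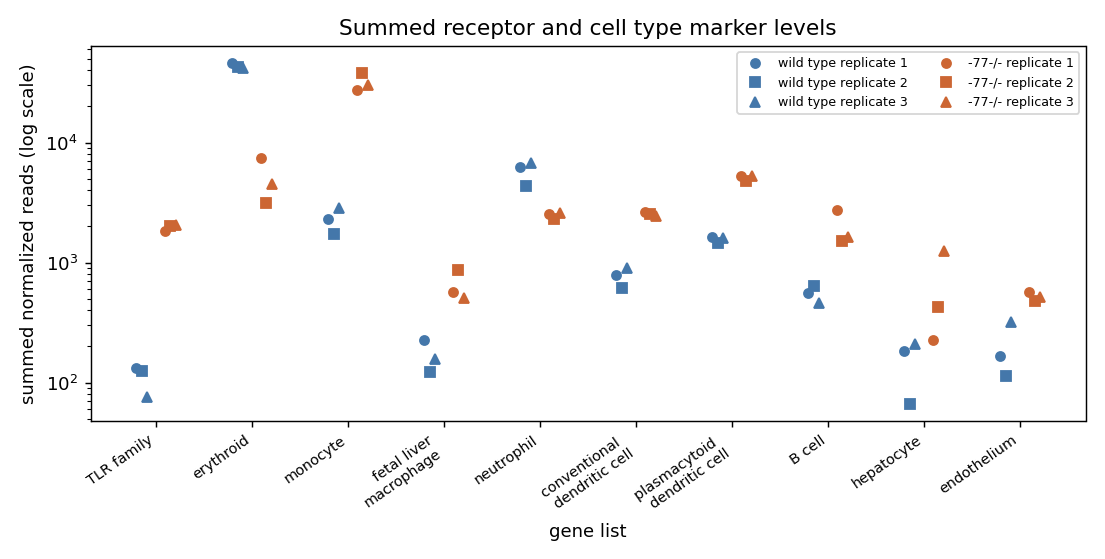
Summed normalized reads of the Toll-like receptor family and of each cell type marker list, on a log scale, by library, with wild type in blue, -77-/- in orange and a marker shape per replicate. The receptor sum goes from 76.4 to 131 in wild type to 1839 to 2067 in -77-/-, the monocyte sum rises in the same libraries, and the erythroid and neutrophil sums are lower in -77-/-.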

How the data were processed

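RNA was sequenced from 6 sorted cell samples, and a single deposited table held the comparison the authors made with DESeq2 beside the library values. The submitters' processing notes name STAR 2.5, RSEM 1.2.31, Bowtie, DESeq2 and the build mm9, with no role or order, and neither annotation nor strandedness was given in the sources used here. In the library columns the authors deposited a normalized signal, gene counts over a size factor. After leaving out 8 of 19444 rows whose cells are shifted, 100% of values were whole multiples of the library's step (tolerance 0.01 read), which gave back whole reads, possibly rounded RSEM estimates. From the authors' deposited table log2 changes and the adjusted p-values served for comparison only, and the Wald score was not used.

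Genotypes were compared with limma 3.58.1 (R 4.3.3, eBayes with trend and robust set) after log2(value + 1), for genes whose mean reached 10 in the higher genotype, with Benjamini-Hochberg adjustment over 15821 genes and a threshold of 0.05. Fold changes are -77-/- over wild type, as differences of mean logs. The added 1 lowers those of low genes, while wild type libraries near 0 can put them above the ratio of means, as for Tlr3, Tlr13, Tasl and Ccl4. Alternatives were pseudocounts of 0.5 and 5, no filter, a minimum mean of 50, TMM scaling, edgeR 4.0.16, DESeq2 1.42.0 and limma-voom on the recovered reads, limma without trend and robust estimation, and leaving out each library. On the recovered reads edgeR called 4735 genes, beside 5091 with limma. The fit was also run on simulated counts drawn around a common mean per gene, with far fewer changed genes than were called here. That run does not bear on the calls of genes at 0 in wild type libraries. The members and gene lists were chosen with earlier results of these data known. Named genes are all members, in each list the 4 called genes with the largest change and those called against most of the list, 6 partners, and the 3 genes nearest to the profile of each receptor class. Replicates are numbered in record order and pair nothing. GENCODE M21 (GRCm38) gave transcript lengths and shared windows, and none of its coordinates was used with the table.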

Additional observations from a re-analysis of the deposited data

How the results depend on the processing

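All 9 tested receptors stayed higher in -77-/- in every alternative in which they were tested, and the number called ranged from 6 to 9. With a minimum mean of 50, 2 of the surface receptors were called, because Tlr1 and Tlr6 no longer entered, and leaving out 1 library gave 2 to 4 called. With limma without a trend and robust estimation, 3 endosomal receptors were called, with Tlr3 at 4.35 (adjusted p = 0.093) and Tlr13 at 3.89 (adjusted p = 0.051). Tlr1 lost its call with edgeR (log2 fold change 4.40), Tlr6 with limma-voom (4.18), and Tlr3 with edgeR (2.67) and DESeq2 (2.69). Leaving out each library in turn gave log2 fold changes of 3.89 to 5.28 for Tlr1, 3.23 to 4.21 for Tlr6 and 3.52 to 6.00 for Tlr3. The cause of these losses was not tested. Limma without a trend and robust estimation also called 1430 genes lower in -77-/- in place of 2410, 3 proteases and nucleases in place of 6 and 4 induced genes in place of 7. Leaving out 1 library gave 2 to 6 called IL-1 receptor family members, and 1 to 2 of Tlr11 and Tlr12. TMM scaling moved the median of all genes by -0.002. For 40 named genes outside the family, 596 values under alternatives gave no change of direction, 37 lost calls in 9 genes and 1 gained call (Cd14). No paired analysis was possible because the labels give no replicate numbers. Depth limits Tlr5 and the wild type levels of Tlr1, Tlr6 and Tlr8, at 6 reads or fewer over 3 libraries.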
